A study of Mus musculus with 6 samples.

Results

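The interferon regulatory factors are a family of transcription factors, and 7 of their genes were followed here: Irf1, Irf2, Irf3, Irf4, Irf5, Irf7 and Irf8. They were chosen by name, with earlier results of these data known, from a deposited table of 22442 mouse genes. The RNA was from mTECs, mouse tubular epithelial cells of the kidney, and comprised 6 libraries in 2 groups of 3. Every library came from cells given lipopolysaccharide (LPS), the bacterial cell wall component that Toll-like receptor 4 senses, at 20 μg/ml for 24 h. The libraries labelled LPS also carried a negative control transfection, and those labelled LPSKD carried an RNA meant to silence Stat3, a transcription factor downstream of cytokine receptors. The comparison asks what the silencing construct changed in cells that had all met LPS, since no library without LPS is in the series. The sample labels call the cells magnetically sorted and the silencing RNA an siRNA, whereas the study's methods describe 1 immortalised mTEC line and list an shRNA, so the group names are used as labels only.

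Interferon regulatory factors share a DNA-binding domain that reads repeats of GAAA, found in the interferon-stimulated response element of interferon and antiviral genes. IRF3 and IRF7 wait in the cytoplasm until the kinases TBK1 and IKKε phosphorylate them downstream of Toll-like and RNA-sensing receptors, and they then switch on type I interferon genes. Interferon in turn acts through ISGF3, a complex that holds STAT2 and IRF9, which raises transcription of many antiviral genes and of Irf7. IRF1 is an activator and IRF2 largely a repressor at the same elements, and IRF4, IRF5 and IRF8 are best known from lymphocytes, macrophages and dendritic cells.

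Irf7 was the 1 factor whose transcript passed the test between the groups, and it was lower in the libraries labelled LPSKD. Its mean level of 9.59 ± 0.921 FPKM (SD, n = 3) under the LPS label compared with 1.64 ± 0.694 FPKM (n = 3) under the LPSKD label, which is 5.85-fold lower. FPKM scales fragments by length and library size, so levels of different genes can be set side by side. The length that the values fit is the merged coding length of each gene. The transcripts of Irf1, Irf2 and Irf3, which were more abundant, kept log2 fold changes between −0.19 and 0.10 that did not pass the test. Irf5 and Irf8 were near the lower end of what was tested, and Irf4 was represented by at most 6 fragments in any library.

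Of the 7 members, 6 had a mean of at least 0.5 FPKM and were tested with limma on log2(FPKM + 0.1), in a fit of all 11723 genes that passed that filter. After Benjamini-Hochberg adjustment over those genes 1 member was lower, 0 were higher and 5 were not called, against a background of 379 called genes, or 3.23% of those tested (1.66% lower and 1.57% higher). At an unadjusted p under 0.05 the same fit again gave 1 member lower and 0 higher, as did voom weights on recovered fragments. The share of all tested genes under that unadjusted p is not given here. The unadjusted counts of the members and of the lists below therefore have no background beside them. After adjustment voom called 567 genes over its whole fit, 281 lower and 286 higher. The groups stood fully apart for 1 of the 6 tested members, again Irf7, and for 23.8% of the genes in the whole fit. The median log2 fold change was −0.11 over the 6 members and −0.01 over all tested genes. Nothing in the labels says that the 3 libraries of a group came from separate cultures, so the p-values measure only the spread between these libraries, and fewer cells of a type cannot be told apart from less RNA per cell.

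The libraries were alike in depth, with 24084827 to 25422171 fragments recovered from the values. Stat3, the gene the construct targets, was at 34.6, 31.4 and 35.2 FPKM in the libraries labelled LPS and at 30.8, 35.2 and 34.3 FPKM in those labelled LPSKD, a log2 fold change of −0.01 ± 0.07 (SE; limma, adjusted p = 0.944). The groups overlapped, so the transcript of the target does not check the labels, and each direction given here rests on the labels. Among 14 markers of tubular epithelium 12 had a mean of at least 0.5 FPKM, including Krt8 and Krt18 at 1158 to 1300 FPKM. The proximal tubule markers Lrp2 and Slc34a1 were at 0 to 0.00869 FPKM. Other proximal tubule markers of the list were present, with Aqp1 at 3.9 to 9.2, Havcr1 at 4.96 to 7.59 and Cubn at 0.817 to 1.11 FPKM. By limma 1 of these markers was lower and 4 were higher, where 1.66% and 1.57% of all tested genes were. Krt18 was at 1278, 1292 and 1300 FPKM in the libraries labelled LPS and at 1158, 1161 and 1173 FPKM in those labelled LPSKD. Pax2 was at 34.6, 32.3 and 35 FPKM against 54.5, 49.1 and 51.5 FPKM. The part of these markers in the results was not tested. Of 9 fibroblast and endothelial markers 7 reached the filter and 0 were called, with summed levels of 27.8 to 36.5 FPKM in the LPS group and 20.1 to 35.9 FPKM in the LPSKD group.

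**Figure D1:**
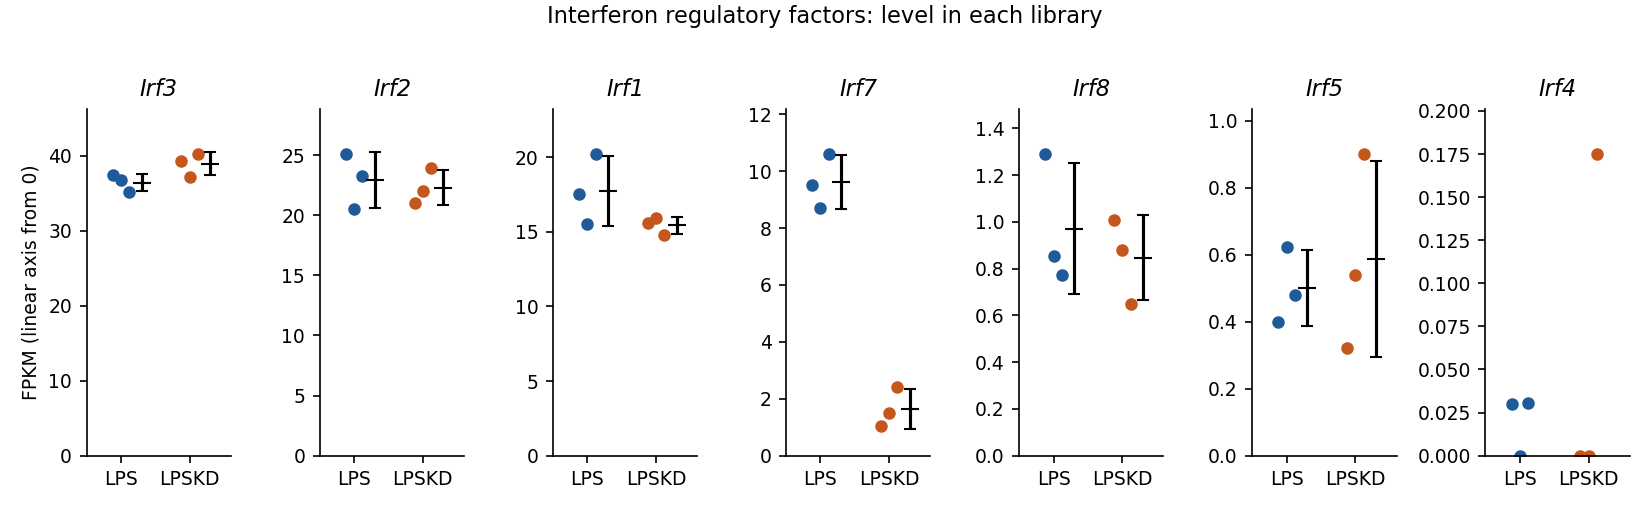
FPKM of each factor in each library on linear axes that start at 0, with 1 panel per gene in falling order of level. Points are libraries and bars are the mean ± SD (n = 3), left out for Irf4, where 3 libraries are at 0. Irf7 is the panel in which all 3 libraries labelled LPSKD, at 1.03 to 2.4 FPKM, sit below all 3 labelled LPS, at 8.72 to 10.6 FPKM.

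Irf7 (ENSMUSG00000025498) lies on the minus strand at chr7:141262706-141266481 of GRCm38 and encodes the factor that amplifies type I interferon production. It was at 9.5, 8.72 and 10.6 FPKM in the libraries labelled LPS, from 330, 303 and 360 fragments. In the libraries labelled LPSKD it was at 1.03, 1.49 and 2.4 FPKM, from 36, 50 and 85 fragments. The groups were far apart, and the lowest LPS value was over the highest LPSKD value. The log2 difference was −2.55 ± 0.26 (SE), with a 95% confidence interval from −3.14 to −1.96 and a limma adjusted p of 0.00157. The exact two-sided permutation test gave p = 0.1, which is the smallest that 3 against 3 libraries allow. Among the 11723 tested genes this was the value at rank 11 from the lowest.

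Within the libraries labelled LPSKD Irf7 was less even than within the others, with a coefficient of variation of 42.3% against 9.6%. The 95% Poisson intervals of 36 fragments (25.2 to 49.8) and of 85 fragments (67.9 to 105) did not overlap, so the spread there was more than counting error. Leaving out each library in turn gave log2 fold changes from −2.85 to −2.28 and adjusted p from 0.00056 to 0.0121. Irf7 overlaps its neighbour Phrf1 on the annotation, though by 0 coding bases, and Phrf1 was at 31.1 to 35.1 FPKM with an adjusted p of 0.983. Of the 31-base stretches in the Irf7 transcripts, untranslated regions included, 0.608% also occur in another gene's transcripts.

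The Irf7 promoter is printed because its gene was the member that moved. The sequence is from RefSeq on GRCm38.p6, 5′ to 3′ on the gene's strand, and ends at the base before the first annotated start.
Irf7, chr7:141266482-141266674, minus strand: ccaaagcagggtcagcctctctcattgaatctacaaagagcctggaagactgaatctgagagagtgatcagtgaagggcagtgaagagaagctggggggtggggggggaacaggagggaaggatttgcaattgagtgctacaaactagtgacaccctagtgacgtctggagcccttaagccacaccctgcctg
None of its letters are in capitals because neither motif searched was found in the window. These were the interferon element, spelled GAAANNGAAA, and the STAT element, spelled TTCNNNGAA and read by STAT dimers, on both strands. The window ran from 250 bases before the RefSeq start to 50 after it, and the missing match says nothing of other sites or of spellings that depart from these letters.

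Irf3 (ENSMUSG00000003184, chr7:44997648-45002848, plus strand) encodes the factor that is present before a stimulus and starts the first wave of interferon-β. It was at 37.4, 36.7 and 35.1 FPKM in the libraries labelled LPS and at 39.3, 37.2 and 40.2 FPKM in those labelled LPSKD. These ranges overlapped at 1 library, and the log2 fold change of 0.10 ± 0.05 (SE) had an interval from −0.02 to 0.21 (limma, adjusted p = 0.383). The interval holds changes of the Irf3 transcript of up to 0.21 on the log2 scale.

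Since IRF3 and IRF7 can form dimers on interferon genes, their transcripts were also set against each other within each library, which cancels library scaling. The Irf7 to Irf3 ratio of FPKM came to 0.254, 0.237 and 0.301 under the LPS label. It was 0.0262, 0.04 and 0.0596 in those labelled LPSKD. The groups did not overlap, and the mean log2 ratio differed by −2.73, with p = 0.1 in the exact two-sided permutation test (0.3 adjusted over 3 ratios). Over the summed FPKM of all 7 members, Irf7 held 10.9 ± 0.698% (n = 3) in the LPS group and 2.04 ± 0.793% (n = 3) in the LPSKD group.

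Irf1 (ENSMUSG00000018899, chr11:53770014-53778374, plus strand) is induced by interferon-γ and activates genes of antigen presentation. It was at 17.5, 15.5 and 20.2 FPKM in the libraries labelled LPS and at 15.6, 15.9 and 14.8 FPKM in those labelled LPSKD. LPS replicate 3 stood highest, and the groups overlapped. The log2 fold change was −0.19 ± 0.10 (SE), with an interval from −0.42 to 0.03 (limma, adjusted p = 0.353). A fall of Irf1 by up to 0.42 on the log2 scale therefore lies within the interval. A stretch of 100 of its 1043 coding bases overlaps exons of Gm17334 on the other strand, and whether the kit kept strand is not stated.

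Irf2 (ENSMUSG00000031627, chr8:46739732-46847458, plus strand) encodes the factor that competes with IRF1 for the same element. Irf2 was measured at 25.1, 20.5 and 23.3 FPKM in the libraries labelled LPS and 21, 22 and 23.9 FPKM in those labelled LPSKD, so that each group spanned much of the other. The log2 fold change was −0.04 ± 0.09 (SE), with an interval from −0.24 to 0.15 (limma, adjusted p = 0.858), and its sign turned without LPS replicate 1 (0.03). The ratio of Irf1 to Irf2 was 0.696, 0.757 and 0.87 under the LPS label against 0.743, 0.725 and 0.619 under the LPSKD label. That is a difference of −0.15 in mean log2 ratio, with p = 0.4 in the exact two-sided permutation test, before and after adjustment. The ratio of Irf1 to Irf3 differed by −0.29, with p = 0.2 in the same exact test (0.3 adjusted). Both of these ratios overlapped between the groups.

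Promoters of Irf1, Irf2 and Irf8 are printed as the members in which a motif was found, with the matched letters in capitals. They are RefSeq sequences on GRCm38.p6, 5′ to 3′ on the plus strand, each ending before the first annotated start of its gene.
Irf1, chr11:53769764-53770013: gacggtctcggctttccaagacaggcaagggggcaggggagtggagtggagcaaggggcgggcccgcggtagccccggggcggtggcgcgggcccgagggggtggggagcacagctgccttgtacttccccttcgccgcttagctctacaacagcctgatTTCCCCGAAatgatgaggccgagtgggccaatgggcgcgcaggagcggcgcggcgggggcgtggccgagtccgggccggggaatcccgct
Irf2, chr8:46739495-46739731: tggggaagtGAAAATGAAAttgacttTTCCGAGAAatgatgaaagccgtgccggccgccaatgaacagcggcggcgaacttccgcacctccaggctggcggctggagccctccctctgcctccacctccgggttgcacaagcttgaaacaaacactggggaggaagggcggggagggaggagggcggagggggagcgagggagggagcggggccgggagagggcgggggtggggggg
Irf8, chr8:120736108-120736357: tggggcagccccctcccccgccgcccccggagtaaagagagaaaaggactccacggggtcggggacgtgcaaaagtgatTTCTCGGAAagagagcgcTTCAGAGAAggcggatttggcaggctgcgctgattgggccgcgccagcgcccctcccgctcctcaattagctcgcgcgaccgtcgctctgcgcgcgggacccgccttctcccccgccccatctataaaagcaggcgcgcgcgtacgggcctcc
In Irf1 the capitals mark a STAT element that begins 90 bases before the RefSeq start. In Irf2 they mark an interferon element that begins 241 bases before the start, followed by a STAT element at 224 bases. In Irf8 they mark STAT elements that begin 171 and 153 bases before the start. The STAT spelling reads the same on both strands, so each match counts once.

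RefSeq listed 9 windows of 300 bases for the 7 members. An interferon element was in 1 of these 9 windows, against 3.44% of 32851 mouse promoter windows of the same length. With the last letter dropped, as GAAANNGAA, it was in the same number of member windows and in 8.56% of all, every full match being counted again. A STAT element was in 3 of the 9, against 8.3% of all windows. For the genes listed as IRF targets the interferon element was in 13 of 31 windows (41.9%). These matches describe letters and not binding, and the member with the changed transcript was not among those that held one.

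**Figure D2:**
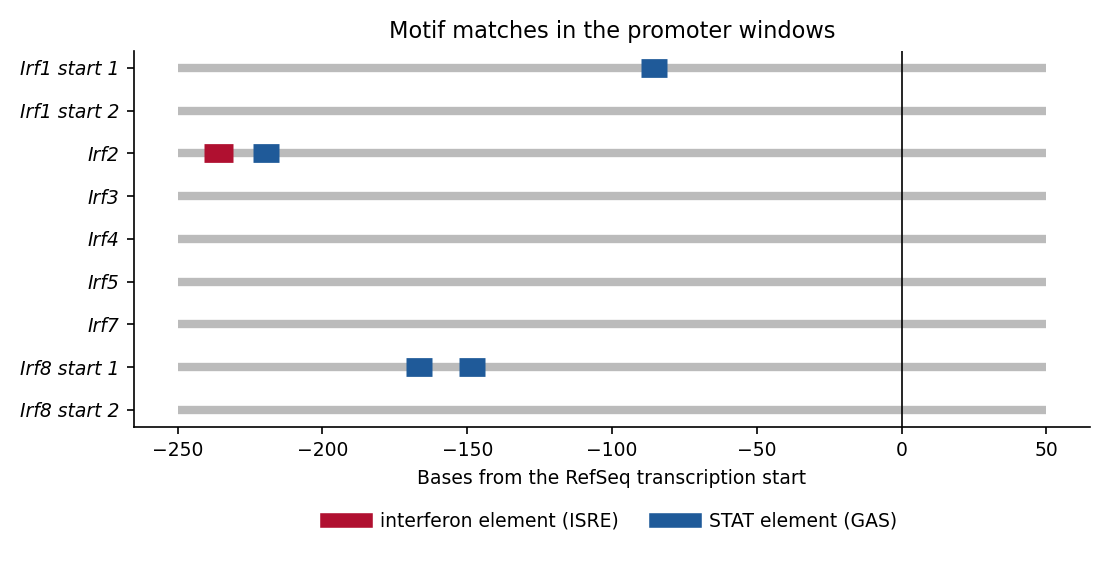
Positions of the interferon element (ISRE, red) and the STAT element (GAS, blue) in the promoter windows of the 7 members, in bases from the RefSeq transcription start, from 250 before to 50 after. Grey bars are the windows, 2 each for Irf1 and Irf8, and matches lie in Irf1, Irf2 and Irf8 but not in Irf7.

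Irf8 (ENSMUSG00000041515, chr8:120736358-120756694, plus strand) directs the development of dendritic cells and monocytes. It was at 1.29, 0.852 and 0.772 FPKM in the libraries labelled LPS and at 1.01, 0.881 and 0.649 FPKM in those labelled LPSKD, from 21 to 41 fragments. The groups overlapped, and the log2 fold change of −0.17 ± 0.31 (SE) had an interval from −0.88 to 0.54 (limma, adjusted p = 0.837). Only 5.07% of tested genes had a lower mean level.

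Irf5 (ENSMUSG00000029771, chr6:29526625-29541871, plus strand) carries Toll-like receptor signals to inflammatory cytokine genes in macrophages. Its 3 libraries labelled LPS were at 0.398, 0.622 and 0.481 FPKM, and the 3 labelled LPSKD at 0.322, 0.54 and 0.901 FPKM. One LPSKD library was the highest and another the lowest of the 6, from 37 and 13 fragments. The log2 fold change of 0.12 ± 0.43 (SE) had an interval from −0.86 to 1.11 (limma, adjusted p = 0.917). The 95% Poisson intervals of 13 fragments (6.92 to 22.2) and of 37 fragments (26.1 to 51), both from libraries labelled LPSKD, did not overlap, so here too the spread was more than counting error. Of its 1614 coding bases 123 lie in exons of Tnpo3 on the opposite strand, which was at 76.3 to 79.6 FPKM, and their part in these values was not tested.

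Irf4 (ENSMUSG00000021356, chr13:30749226-30766976, plus strand), a factor of plasma cells and activated lymphocytes, was at 0.0297, 0 and 0.0303 FPKM in the libraries labelled LPS. It was listed at 0, 0 and 0.175 FPKM in those labelled LPSKD. These values stand for 1, 0 and 1 fragments against 0, 0 and 6. All but the last were under the 3 fragments per library that a count of 0 allows, and the 6 came from LPSKD replicate 3 alone. It was not in the tested genes, no fold is given, and a fit of all 16837 genes above 0 gave an adjusted p of 0.841 where 1.58% were called.

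Because these last 3 factors are best known from blood cells, 18 blood cell markers were read beside them. Of these, 9 had a mean of at least 0.5 FPKM. The pan-leukocyte marker Ptprc was at 0.372 to 1.08 FPKM. Siglech, a plasmacytoid dendritic cell marker, was at 0 in all libraries, and Ms4a1 and Itgam stayed at or below 0.0459 FPKM. Others were present, with Cd68 at 9.64 to 15, Fcer1g at 2.18 to 4.6, Tyrobp at 0.844 to 2.11 and Adgre1 at 0.53 to 1.29 FPKM. The summed level was 94.9 to 98.4 FPKM in the LPS group and 98.5 to 115 in the LPSKD group, most of it from Cd74, Lyz2 and Csf1r. By limma 0 of the markers were lower and 1 was higher, where 1.66% and 1.57% of all tested genes were. The higher one was the receptor gene Csf1r, at 27.4, 22 and 24 FPKM against 33.5, 33.8 and 32.7 FPKM (limma adjusted p = 0.0208, over 0.05 without LPS replicate 3 or any 1 LPSKD replicate and with eBayes without trend, up to 0.0902). The part of the markers in the levels of Irf4, Irf5 and Irf8 was not tested.

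**Figure D3:**
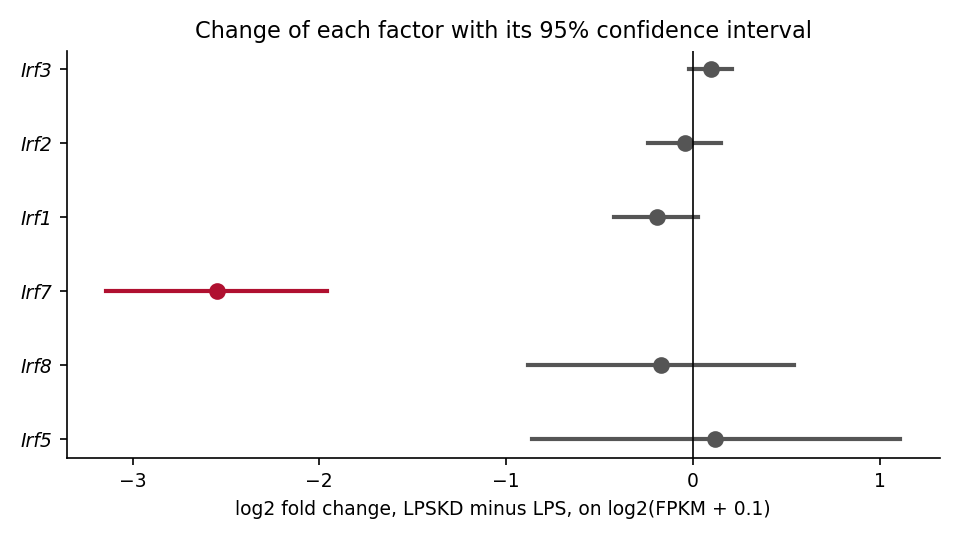
Log2 fold change of the 6 tested factors, libraries labelled LPSKD minus those labelled LPS, on log2(FPKM + 0.1), with 95% confidence intervals from limma. Irf7 (red, −2.55) is the factor past the threshold; the intervals of the other 5 (grey) all include 0 and widen from Irf3 at 36.4 FPKM in the LPS group to Irf5 at 0.5 FPKM.

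The order of the levels was Irf3, Irf2, Irf1, Irf7, Irf8, Irf5 and Irf4 in both groups. In the libraries labelled LPS no 2 neighbours in this order overlapped. In those labelled LPSKD Irf8 and Irf5 did, at 0.649 to 1.01 and 0.322 to 0.901 FPKM, so that their order there is not beyond the spread. Irf7 kept its place between Irf1 and Irf8 in both groups, with no overlap with Irf1 in either.

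Likeness to each member was measured over the 6 libraries as the root mean square difference of log2(FPKM + 0.1), each gene centred on its mean, among 11025 genes with a mean of at least 1 FPKM. Nearest to Irf7 were Apol9b (0.377), Ifi44 (0.382) and Mcpt8 (0.425), and Irf9 came next (0.43). Ifi44, an interferon-induced gene, was at 4.32, 7.27 and 7.5 FPKM in the libraries labelled LPS and at 1.04, 0.984 and 1.21 FPKM in those labelled LPSKD. Apol9b has a close paralog with which it may share fragments. The call on Mcpt8, a basophil protease gene, was lost without LPS replicate 2 (limma adjusted p = 0.0605) or 3 (0.0906). That call was also lost with eBayes without trend (0.0505). The distances from Irf7 are larger than those from the steadier members, whose nearest genes were Tmprss2 for Irf1 (0.0373), Eps8l1 for Irf2 (0.0245) and Setd5 for Irf3 (0.0124). For the steadier 3 the likeness is over small library-to-library differences. The next nearest were Zranb3 (0.0385) and Spry4 (0.0474) for Irf1, Dus3l (0.0273) and Kmt2c (0.0304) for Irf2, and Ski (0.014) and Ccdc136 (0.0169) for Irf3.

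**Figure D4:**
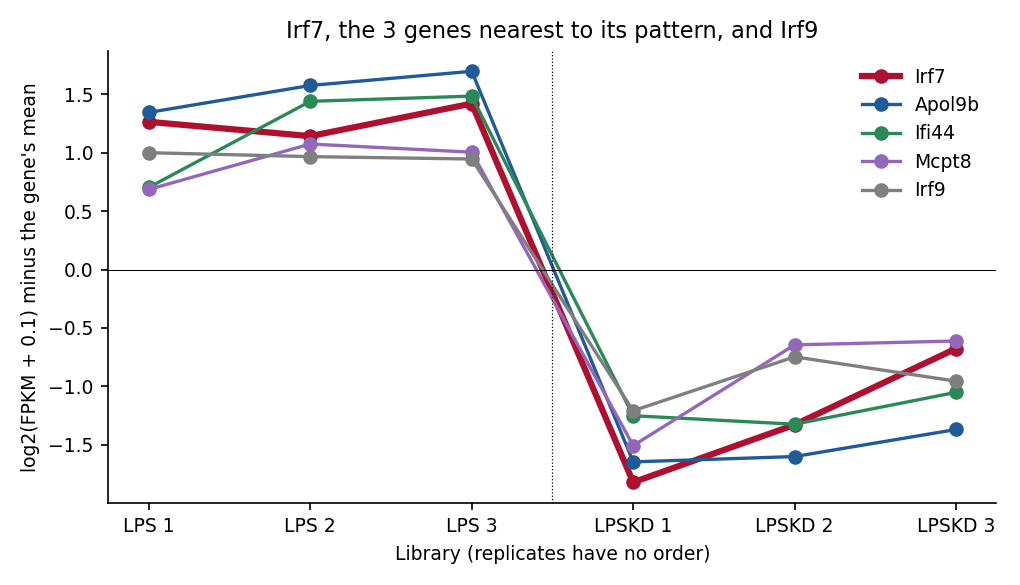
Level of Irf7 (thick red), the 3 genes nearest to its pattern and Irf9 in each library, as log2(FPKM + 0.1) minus the gene's mean over the 6 libraries. All 5 genes lie above 0 in the 3 libraries labelled LPS and below 0 in the 3 labelled LPSKD, and Irf7 spreads most in the latter.

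The genes that carry signals to the factors included lower transcripts of RNA sensors, while no kinase gene was called. Of 23 genes listed from Toll-like receptor 4 to the IRF kinases, 20 were tested, 3 were lower, 0 were higher and the median log2 fold change was −0.05. Over all tested genes 1.66% were lower and 1.57% higher. The 3 lower ones sense viral RNA. Ddx58, which encodes RIG-I, fell from 19.3 to 5.92 FPKM (log2 fold change −1.69, limma adjusted p = 2.44e-05). Ifih1, which encodes MDA5, fell from 2.66 to 0.938 FPKM (−1.41, adjusted p = 0.00642). Tlr3 fell from 67.5 to 52.1 FPKM (−0.37, adjusted p = 0.00245).

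No gene of the list was called higher. At an unadjusted p under 0.05 there were 2 higher and 4 lower, and voom weights on recovered fragments called 1 higher. That one was Cd14, the LPS co-receptor gene, at 63.5, 63.1 and 65.6 against 76.2, 71.5 and 72.1 FPKM, whose limma adjusted p rounded to 0.05 without passing. Tlr4 itself was at 17.5 ± 0.934 against 18.3 ± 0.786 FPKM (n = 3 each; limma adjusted p = 0.718). The kinase gene Tbk1 was at 37.2 ± 2.29 against 38.4 ± 2.01 FPKM (limma adjusted p = 0.764), and Chuk, the most abundant of the list, was at 96 ± 7.41 against 93.1 ± 0.902 FPKM (limma adjusted p = 0.762).

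Among proteins that bind, modify or act with the factors, 20 of 23 genes were tested, with 1 lower, 0 higher and a median of −0.02. Called genes were 5% of those tested in this list and 3.23% of all tested genes, so the 1 call is near the background share. Trim21, a ubiquitin ligase that modifies several of the factors, fell from 6.51 to 3.04 FPKM (log2 fold change −1.08, limma adjusted p = 0.00549). At an unadjusted p under 0.05 there were 2 lower and 1 higher, and voom called 1 of each. The higher one was Nfkb1, the gene of the NF-κB subunit p50, with a log2 fold change of 0.16 (limma adjusted p = 0.0759). Trim28, a co-repressor gene and the most abundant of this list, was at 231 ± 10.5 against 232 ± 1.22 FPKM (n = 3 each; limma adjusted p = 0.915).

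Of the interferon receptor and ISGF3 genes, all 12 listed were tested, 4 were lower and 2 higher, with a median of −0.02. The background over all tested genes was 1.66% lower and 1.57% higher. Irf9, the DNA-binding subunit of ISGF3 and a relative of the 7 members, was at 21.6, 21.1 and 20.8 FPKM in the libraries labelled LPS and at 4.59, 6.36 and 5.49 FPKM in those labelled LPSKD (log2 fold change −1.94, limma adjusted p = 6.51e-05). Stat2, which binds IRF9 in that complex, was lower too, from 14.8 to 10.3 FPKM (−0.52, limma adjusted p = 0.0131). Usp18, an inhibitor of the type I interferon receptor that interferon itself induces, was lower by more than both, from 19.5 to 1.29 FPKM (−3.83, adjusted p = 1.08e-05).

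The 2 called higher were the genes of the interferon-γ receptor. Ifngr1 was at 84.2 ± 1.37 against 110 ± 1.3 FPKM (n = 3 each; log2 fold change 0.39, limma adjusted p = 0.000892), and Ifngr2 at 31.2 ± 1.45 against 38 ± 0.225 FPKM (0.29, limma adjusted p = 0.0218). The call on Ifngr2 was lost without LPS replicate 2 or any 1 LPSKD replicate (adjusted p 0.052 to 0.0959), with eBayes without trend (0.0691) and with the replicate block (0.057). The type I interferon receptor genes were not called, Ifnar1 with a log2 fold change of 0.02 (limma adjusted p = 0.92) and Ifnar2 with 0.25 (limma adjusted p = 0.275). The call on Stat2 was lost without LPS replicate 3 or LPSKD replicate 1 or 2 (0.0557 to 0.068).

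Of 38 genes listed as targets of IRF1, IRF3 or IRF7, 29 were tested, 7 were lower (1.66% of all tested genes were), 0 were higher, and the median log2 fold change was −0.28. Below 0 were 26 of the 29, where 6154 of all 11723 tested genes were, and the groups of 17 stood apart, beside the background of 23.8% over all genes. The list was drawn up with earlier results of these data known, so these counts describe it and are not an independent test. Xaf1, an interferon-induced gene tied to apoptosis, fell from 12.5 to 1.02 FPKM (−3.66, limma adjusted p = 0.00157), Ifit1, which binds viral RNA, from 16.8 to 1.37 FPKM (−3.54, adjusted p = 1.08e-05) and Isg15, the ubiquitin-like modifier gene, from 15.3 to 2.63 FPKM (−2.56, adjusted p = 0.00138). The chemokine gene Cxcl10 fell from 35.9 to 5.36 FPKM (−2.78, adjusted p = 0.000288) and Bst2, which encodes tetherin, from 104 to 43.5 FPKM (−1.26, adjusted p = 2.44e-05).

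Trim21, which is in this list as well, and Gbp3 were the other 2. Gbp3 is a guanylate-binding protein gene of a family that can share fragments, and its call (−1.12, limma adjusted p = 0.0259) was lost without either of LPS replicates 2 and 3 or either of LPSKD replicates 1 and 3 (0.052 to 0.111), and also with no filter (0.069), with eBayes without trend (0.0655) and with the replicate block (0.0617), which each left 6 of the list lower. At an unadjusted p under 0.05 there were 12 lower and 2 higher, and voom called 10 lower and 1 higher, where over its whole fit it called 281 lower and 286 higher. The 1 list gene that voom called higher was Ifit2, at 41.9 ± 2.13 against 49.8 ± 3.02 FPKM (n = 3 each; 0.25, limma adjusted p = 0.0709), a relative of Ifit1. The most abundant, the antigen presentation gene B2m, was at 540 ± 42 against 454 ± 28 FPKM (n = 3 each; −0.25, limma adjusted p = 0.082). The largest positive value was that of Il18bp (0.40, limma adjusted p = 0.267). Ifnb1, the interferon-β gene that IRF3 and IRF7 switch on, was under the filter, at 0.147, 0.147 and 1.2 FPKM against 0, 0 and 0.072 FPKM. Its highest value came from LPS replicate 3 alone, and among all genes above 0 its limma adjusted p was 0.277.

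**Figure D5:**
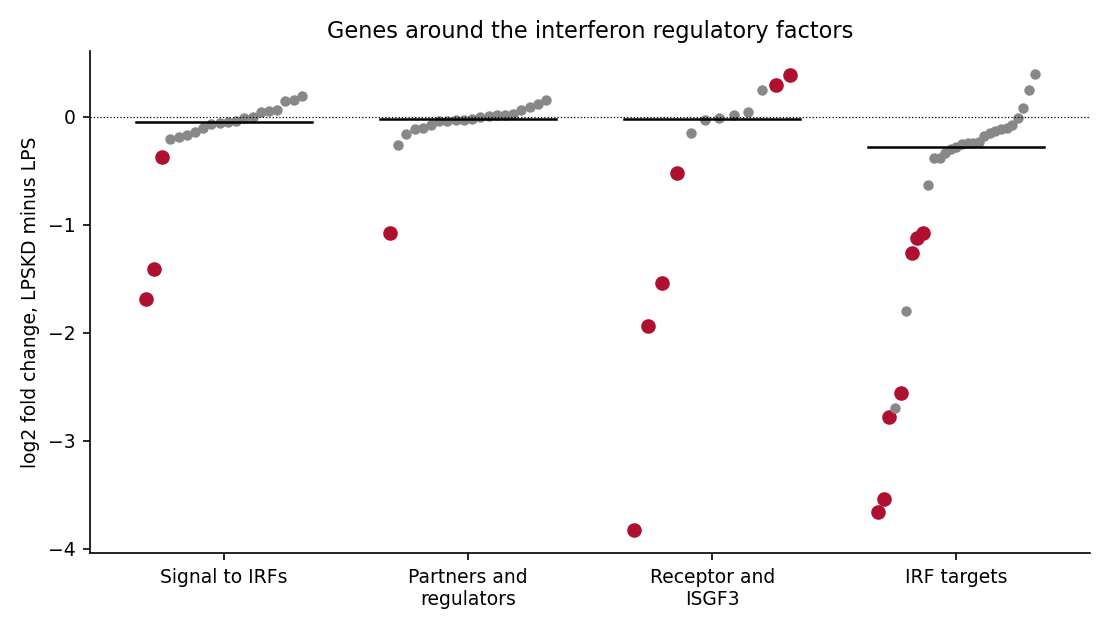
Log2 fold change, libraries labelled LPSKD minus those labelled LPS, of every tested gene in the 4 lists around the factors, sorted within each list. Red points passed an adjusted p of 0.05 in limma, grey points did not, and the black line is the list's median, which lies at −0.05, −0.02, −0.02 and −0.28 from left to right.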

How the data were processed

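RNA-seq values of 6 libraries, 3 labelled LPS and 3 labelled LPSKD, were used as FPKM deposited by the authors in 1 table, already scaled per library and per kilobase. The submitters' processing notes name Bowtie 0.12.2, HISAT2 2.0 and StringTie 1.3.0, without a role. With merged coding lengths of GENCODE M21 on GRCm38, to which all gene coordinates refer, 97.99% of 16792 genes above 0 gave whole fragments (tolerance 0.0001) and library totals of 24084827 to 25422171.

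Groups were compared with limma 3.58.1 in R 4.3.3 (lmFit, eBayes with trend) after adding 0.1 FPKM and taking log2, over every gene whose mean reached 0.5 FPKM, a call being a Benjamini-Hochberg adjusted p under 0.05. The pseudocount understates changes of low genes. A study test for these values is not given in the sources used here. Single ratios were tested by exact permutation over 20 assignments. Poisson intervals (95%) and the limit of 3 fragments cover counting error only. Fits were tested on simulated data. The 16 alternatives cover pseudocount, filter, scaling, model, replicate number and left-out libraries.

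The members and lists were chosen with earlier results of these data known. Named genes were all members, Stat3, Irf9, and from each list the genes past the threshold, the most abundant and those with the largest rise and fall, plus the 3 genes nearest in pattern to members with a mean of at least 1 FPKM. Tlr4, Tbk1, Ifnb1, Ifnar1, Ifnar2, Ifit2, Jun, Csf1r and Batf3 lie outside that rule and were chosen after their values were seen. So were the markers Pax2, Aqp1, Havcr1, Cubn, Cd68, Fcer1g, Tyrobp and Adgre1. Promoters were from RefSeq on GRCm38.p6 and were found for all 7 members. Protein sequences were not used here, and some listed genes are counted but not reported singly here.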

Additional observations from a re-analysis of the deposited data

How the results depend on the processing

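Irf7 stayed lower and past the threshold under all 16 alternatives, with log2 fold changes from −2.85 to −2.03 and adjusted p from 2.39e-05 to 0.0252, and the count of members called stayed at 1 lower and 0 higher. Of 94 member values 4 turned sign and 0 changed side of the threshold: Irf2 without LPS replicate 1 (0.03), Irf5 without LPS replicate 1 (−0.0025) and without LPSKD replicate 3 (−0.19), and Irf8 without LPS replicate 1 (0.03). With libraries left out Irf1 ranged from −0.28 (without LPS replicate 2) to −0.09 (without LPS replicate 3), Irf3 from 0.07 to 0.13, Irf2 from −0.12 to 0.03, Irf5 from −0.19 to 0.43 and Irf8 from −0.30 to 0.03. Dus3l (−0.15 to 0.0021), Eps8l1 (−0.13 to 0.00026) and Kmt2c (−0.12 to 0.0032) also turned, each without LPS replicate 1. The 379 genes called became 140 with eBayes without trend (84 lower, 56 higher), 213 with the replicate number as a block (108 lower, 105 higher), 567 with voom on fragments (281 lower, 286 higher) and 158 to 357 with libraries left out (80 to 154 lower, 76 to 203 higher). In the list of signals to the factors 1 gene, Cd14, was called higher with a pseudocount of 1, a filter at 1 FPKM, median centring or voom. In the partner list 2 were called lower with the replicate block, Trim21 and Jun, and 1 higher with voom, Nfkb1, in the receptor list 1 was called higher with eBayes without trend, 1 with the replicate block and 1 to 2 with libraries left out, and in the target list 1 was called higher with voom, Ifit2. The cause was not tested. List medians with libraries left out ran from −0.07 to −0.03 for signals, −0.04 to 0.0033 for partners, −0.05 to 0.04 for receptors and −0.43 to −0.25 for targets. The difference in the log2 ratio ran from −3.02 to −2.43 for Irf7 to Irf3, −0.23 to −0.07 for Irf1 to Irf2 and −0.39 to −0.16 for Irf1 to Irf3. Same-numbered libraries did not deviate together (correlations −0.016, −0.00388 and −0.0426), so the numbers were not taken as pairs; with the replicate block Irf7 kept an adjusted p of 0.0059. Irf4, Irf5 and Irf8 rest on at most 41 fragments a library.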

Other observations

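Batf3, a partner of IRF4 and IRF8 in lymphocytes and dendritic cells, was listed at 0 in all 3 libraries labelled LPS and at 0.113, 0.351 and 0.665 FPKM in those labelled LPSKD, from 1, 3 and 6 fragments. It was under the filter, and among all genes above 0 its limma adjusted p was 0.0838.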
